A study of Drosophila melanogaster with 2 samples.

Results

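The cell cycle and DNA replication genes of Drosophila melanogaster were examined for binding of emc fused to eGFP in whole embryos. The 43 genes were taken by name from a fixed list of replication licensing factors, fork proteins, cyclins and their kinases, E2F proteins and mitotic regulators, and all 43 were found among 13945 protein-coding genes, lat under its other symbol Orc3. DNA precipitated with a GFP antibody was sequenced from 2 biological replicates, numbered 1 and 3, of embryos aged 0 to 24 h, of both sexes together, from a transgenic line that stably expressed emc with GFP at its C-terminus. Both replicates came from the same line, no other genotype or treatment was part of the group, and no control library was among the samples. The labels do not name the promoter that drives the fusion. The embryos were whole and mixed in age, so strong binding in few cells and weak binding in many cannot be told apart.

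A gene was counted as occupied when the summit of a peak lay within 1 kb of any annotated transcription start of the gene or inside the gene. The main list was that of 1865 peaks kept after thresholding by the authors on the irreproducible discovery rate (IDR), a measure of how well 2 replicates rank the same peaks. The signal of a peak is the value the authors deposited for it, which has no stated scale and serves here for rank and description. The lowest signal in the IDR list was 62.7 and its median 94.2. A relaxed list pooled over both replicates held 29399 peaks on the main chromosomes, down to a signal of 18.8, and the relaxed lists of replicates 1 and 3 held 29999 and 30000. The authors describe the relaxed lists as peaks and background together. Read depth is not given in the files. Intervals beside shares are exact Clopper-Pearson 95% intervals and take in counting error alone.

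As background, replication starts when the origin recognition complex and Cdc6 recruit Double parked, which loads the MCM helicase onto DNA, and Geminin blocks Double parked until the next cycle. Cyclin-dependent kinases drive entry into S phase and mitosis, and E2F with its partner Dp switches S phase genes on until Rbf restrains it. The emc protein is a helix-loop-helix protein without the basic region that touches DNA, related to the vertebrate Id proteins, and is best known as an antagonist of proneural proteins.

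Of the 43 genes, 7 had an IDR peak, 16.3% (6.81 to 30.7). These were dpa, dup, RnrS, E2f2, Dp, polo and aurA. Among the 13902 other protein-coding genes 14.3% had one, so the share of cell cycle genes was close to the background. Counting only summits within 1 kb of a start gave the same 7 genes, against 12.4% of the others. By group, 2 of 16 licensing genes (12.5%, 1.55 to 38.3), 1 of 7 fork and nucleotide supply genes (14.3%, 0.361 to 57.9), 0 of 11 cyclin, kinase and phosphatase genes (interval up to 28.5%), 2 of 4 genes of the E2F group (50%, 6.76 to 93.2) and 2 of 5 mitotic regulators (40%, 5.27 to 85.3) were occupied. Each of these intervals includes the background share, and the groups are small.

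The weaker peaks of the pooled list were found at nearly every member. A pooled summit was assigned to 42 of 43 genes (97.7%, 87.7 to 99.9), against 70.6% of other protein-coding genes, and RfC4, a subunit of the clamp loader, was the single gene without a peak in any list. The best pooled signal had a median of 32.2 over the 42 genes and of 33.7 over the 9819 other genes with a peak. The pooled list thus marked more of the members, with signals in the same range. Counting genes whose best pooled peak ranked within 3730, which is 2 times the length of the IDR list, gave 10 of 43 members against 24.3% of the others. The 3 members in this range without an IDR peak were Mcm2, Cdk1 and E2f1.

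**Figure D1:**
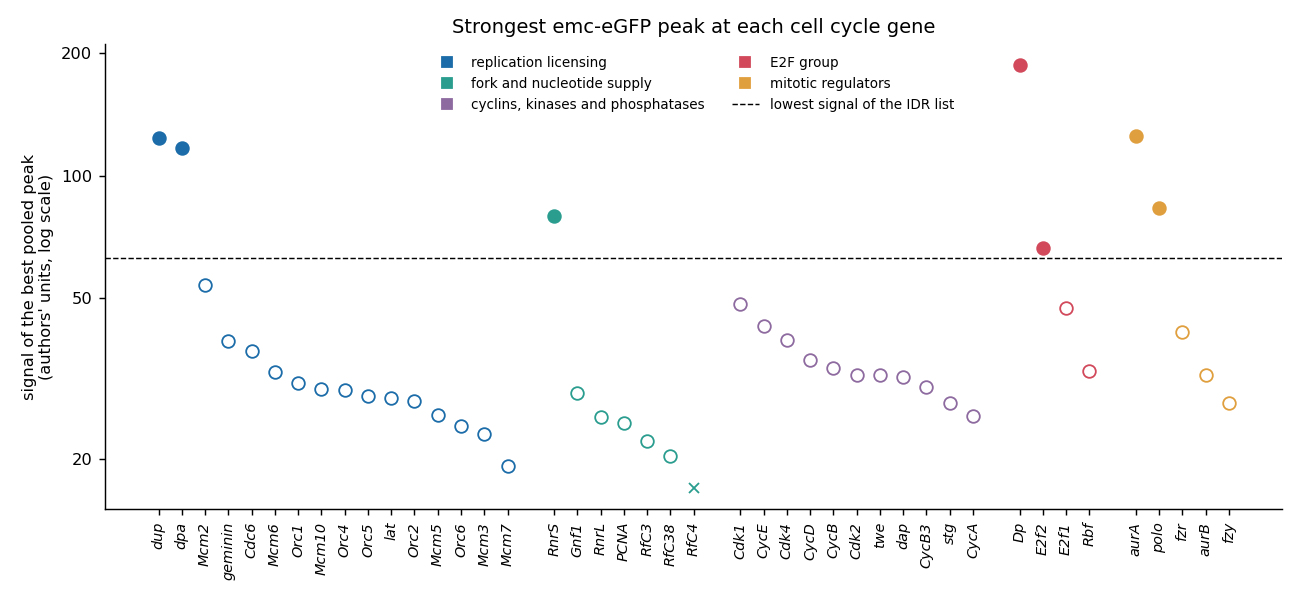
Signal of the strongest pooled peak at each of the 43 genes, in the authors' units on a log scale, by group. Filled points are genes with an IDR peak and open points are genes without, the cross is RfC4 with no peak (its height has no meaning), and the dashed line is the lowest IDR signal, 62.7. Dp stands highest at 187, and no cyclin, kinase or phosphatase gene reaches the line.

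In the licensing group the strongest peaks were at dup, which encodes Double parked, and dpa, which encodes the Mcm4 subunit of the helicase. The dup peak (2R 15380509 to 15380888) had a pooled signal of 124, rank 518 of 1865, with 54.7 in replicate 1 and 78.7 in replicate 3. Its summit lay 85 bp upstream of the inner of 2 annotated dup starts, in the 5' UTR of the longer transcript. The start of the divergent SR protein kinase gene SRPK was nearer, at 25 bp. The dpa peak (2R 7499764 to 7500143) had a pooled signal of 117, rank 591, with 61.8 in replicate 1 and 55.8 in replicate 3. Its summit lay 77 bp upstream of the inner dpa start, again in the 5' UTR of the longer transcript, and 193 bp from didum, a myosin gene. Both genes therefore had strong peaks in both replicates. The ranks in replicates 1 and 3 were 501 and 449 at dup, and 398 and 905 at dpa.

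The other helicase subunits had weaker peaks. Of the 6 genes of the MCM helicase only dpa was occupied in the IDR list, as were 14.3% of other protein-coding genes. Mcm2 came nearest to the threshold among all members without an IDR peak, with a pooled signal of 53.7 at rank 2444 and a summit 42 bp upstream of its start. Its best peaks had signals of 27.8 in replicate 1 (rank 1874) and 27.3 in replicate 3 (rank 3588). The best pooled peaks of Mcm3, Mcm5, Mcm6 and Mcm7 had signals of 23.1, 25.8, 32.9 and 19.3, the last being the lowest of any member. At Mcm3 and Mcm6 the summit was in a coding exon, 628 and 613 bp from the start, and at Mcm5 it was 5 bp from the start of the divergent methyltransferase gene Art1.

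None of the 6 subunits of the origin recognition complex had an IDR peak, a small set beside the 14.3% of other protein-coding genes that had one. Their best pooled signals lay between 24.2 at Orc6 and 30.9 at Orc1, a narrow range below the median of all genes with a peak. The summit lay 29 bp from the start at Orc1, 21 bp at Orc4 and 98 bp from an inner start at lat, while at Orc2, Orc5 and Orc6 it was in a coding exon at 506, 248 and 816 bp. Orc1 and Orc6 had no peak in replicate 1, and Orc2 had none in replicate 3. Cdc6, the loader of the helicase together with Double parked, reached 37.0, geminin 39.2 and Mcm10, a factor that acts as the helicase is activated, 29.9. The Mcm10 summit was nearer to bur, at 460 bp, than to Mcm10, at 710 bp.

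Among fork and nucleotide supply genes RnrS, the small subunit of ribonucleotide reductase, was the single occupied member. Its peak (2R 11985303 to 11985682) had a pooled signal of 79.6, rank 1241, with 33.8 in replicate 1 and 40.0 in replicate 3, and a summit 100 bp upstream of the start. RnrL, the large subunit of the same enzyme, had a best pooled signal of 25.4, in a coding exon 1105 bp from its start, and no peak in replicate 1. The 2 subunits of 1 enzyme thus stood on either side of the threshold. PCNA, the sliding clamp, reached 24.6. The clamp loader genes RfC3, RfC38 and Gnf1 reached 22.2, 20.4 and 29.2, each with its summit in a coding exon, 532, 693 and 2311 bp from the nearest own start.

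No gene of the group of cyclins, cyclin-dependent kinases, Cdc25 phosphatases and the inhibitor dap had an IDR peak. Cdk1, the kinase of mitotic entry, was the highest with a pooled signal of 48.2 at rank 2954 and a summit 103 bp upstream of its start. Its replicates differed, with a signal of 12.9 in replicate 1 (rank 18853) and 32.3 in replicate 3 (rank 2562). CycE, which drives S phase, followed at 42.6, in an intron 620 bp from a start, with 25.1 in replicate 1 at this place and, 362 bp upstream of a start, 19.1 in replicate 3. Cdk4, the partner of Cyclin D, reached 39.3 at 575 bp upstream. The remaining signals were 35.2 at CycD, 33.6 at CycB, 32.2 at Cdk2 and twe, 31.9 at dap, 30.2 at CycB3, 27.6 at stg and 25.6 at CycA. The summit assigned to stg, the Cdc25 gene of the embryonic divisions, lay 83 bp from CG45544, and that assigned to twe, the Cdc25 gene of meiosis, 528 bp from CG4935, both nearer than to their own starts. All 11 genes had a peak in each replicate list, with medians of 13.8 in replicate 1 and 21.5 in replicate 3, against 17.5 and 20.5 over other genes with a peak.

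The E2F group held both the strongest and the weakest of the occupied members. Dp, the dimer partner of both E2F proteins, had 2 IDR peaks. The stronger (2R 13223219 to 13223598) had a pooled signal of 187, rank 210 of 1865, with 80.0 in replicate 1 (rank 222) and 107 in replicate 3 (rank 217). Its summit lay 182 bp upstream of an inner Dp start, in an intron of the longer transcript. The weaker (2R 13222196 to 13222575) had a signal of 74.4, with 31.6 and 36.9 in the replicates, and lay between the divergent starts of Dp and Fsn, at 47 and 48 bp. Dp was the only member with more than 1 IDR peak.

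E2f2, which encodes the repressive E2F of the fly, had the weakest IDR peak of the members (2L 21156101 to 21156480), with a signal of 66.2 at rank 1704. The replicates differed more than at any other occupied member, with a signal of 20.3 in replicate 1 (rank 4283) and 51.1 in replicate 3 (rank 1069). The summit lay 3 bp from the start of the divergent gene Mpp6 and 59 bp upstream of the inner start of E2f2. E2f1, the activating E2F, spans 40568 bp and held 17 pooled peaks but no IDR peak. Most other protein-coding genes of 20 kb or longer had none either, and 32.5% of them had one. The best pooled peak of E2f1 had a signal of 47.1, 5897 bp from the nearest start. In replicate 1 the best E2f1 peak had a signal of 31.2 at rank 1466 and lay in an intron, 2571 bp from a start. In replicate 3 it also had 31.2, at rank 2731, but lay 5922 bp from a start, near the pooled summit. Rbf, the retinoblastoma protein that restrains E2F, had a pooled signal of 33.0 with its summit 16 bp from the start, 26.4 in replicate 3 and no peak in replicate 1.

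Of the mitotic regulators, the kinases aurA and polo were occupied. The aurA peak (3R 11962709 to 11963088) had a pooled signal of 125, rank 508, with 53.1 in replicate 1 and 76.1 in replicate 3. Its summit lay between the divergent starts of aurA, at 225 bp, and CG3281, at 94 bp. The polo peak (3L 20309791 to 20310170) had a pooled signal of 83.0, rank 1132, with 37.0 and 42.0 in the replicates, and its summit lay 66 bp upstream of the inner of 2 polo starts, in the 5' UTR of the longer transcript. These 2 kinases thus stood above the threshold in the pooled data and within the top 1865 peaks of each replicate. aurB, the related kinase of the chromosomal passenger complex, had a best signal of 32.2, at 970 bp in its coding sequence and nearer to Dnz1. The activators of the anaphase-promoting complex fzy and fzr reached 27.5 and 41.3.

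The sequence between the aurA and CG3281 starts is shown as an example of an IDR summit outside annotated transcripts. The stretches upstream of Mcm2 and Cdk1 are shown because these members came next to the threshold. No sequence from the chromosome arm that carries dpa, dup, RnrS and Dp is printed, so their IDR summits are not shown. The RnrS summit also lies outside annotated transcripts. For E2f2 and polo a short stretch at the summit is shown. All are Release 6 (dm6) sequence from RefSeq, 5' to 3' on the strand of the named gene, with the 11 bases centred on the summit in capitals. They lie at chr3R:11962806-11963005 (plus strand), chr3R:8264770-8264969 (plus), chr2L:10386265-10386464 (minus), chr2L:21156277-21156305 (minus) and chr3L:20309967-20309995 (plus).
aurA: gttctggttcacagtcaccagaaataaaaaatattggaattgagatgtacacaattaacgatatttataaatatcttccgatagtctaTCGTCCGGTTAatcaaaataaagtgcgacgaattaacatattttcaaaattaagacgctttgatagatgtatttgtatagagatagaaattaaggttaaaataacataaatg
Mcm2: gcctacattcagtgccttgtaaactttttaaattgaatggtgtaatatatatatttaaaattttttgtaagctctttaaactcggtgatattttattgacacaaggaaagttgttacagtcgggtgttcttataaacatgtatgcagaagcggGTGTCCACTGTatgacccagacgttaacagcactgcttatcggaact
Cdk1: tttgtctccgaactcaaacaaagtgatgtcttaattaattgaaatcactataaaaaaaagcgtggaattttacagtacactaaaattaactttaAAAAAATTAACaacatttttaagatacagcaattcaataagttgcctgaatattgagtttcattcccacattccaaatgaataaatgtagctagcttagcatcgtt
E2f2: tgtgcgcaaGCATCGATTAAtcgatttac
polo: caacaaaatACCGCGATACAtaccagaaa
The aurA, Mcm2 and Cdk1 stretches, of 200 bases each, held no DNA replication-related element (DRE, TATCGATA) and no E2F site (TTTGGCGC or TTTCGCGC). An E-box, the CANNTG site of basic helix-loop-helix dimers, was in the Cdk1 stretch. At aurA an E-box lay within 100 bp of the summit but before the printed bases. The E2f2 stretch has the core of the DRE, ATCGAT, which was within 100 bp of 2 of the 8 member summits (dup and E2f2) and of 12.5% of all IDR summits.

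The best summit of each of the 7 occupied members lay upstream of a start, at 59 to 225 bp. Upstream summits were also usual elsewhere, at 1491 of the 1990 other genes with an IDR peak, 70.4% of which had their summit within 500 bp of a start. The median distance was 85 bp over the 7 members and 204 bp over the others. At dpa, dup, E2f2, Dp and polo that start was an inner start of the gene. Measured from the outermost end of each gene alone, the median distance of the members was 289 bp. The median signal of the best IDR peak was 117 over the 7 members and 99.3 over the others, whose quartiles were 75.6 and 144, so the members stood inside the usual range. At 3 of the 7, dup, E2f2 and aurA, another gene's start was nearer to the summit, and by nearest start 57.1% of the members owned their peak, against 65.3% of the others.

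**Figure D2:**
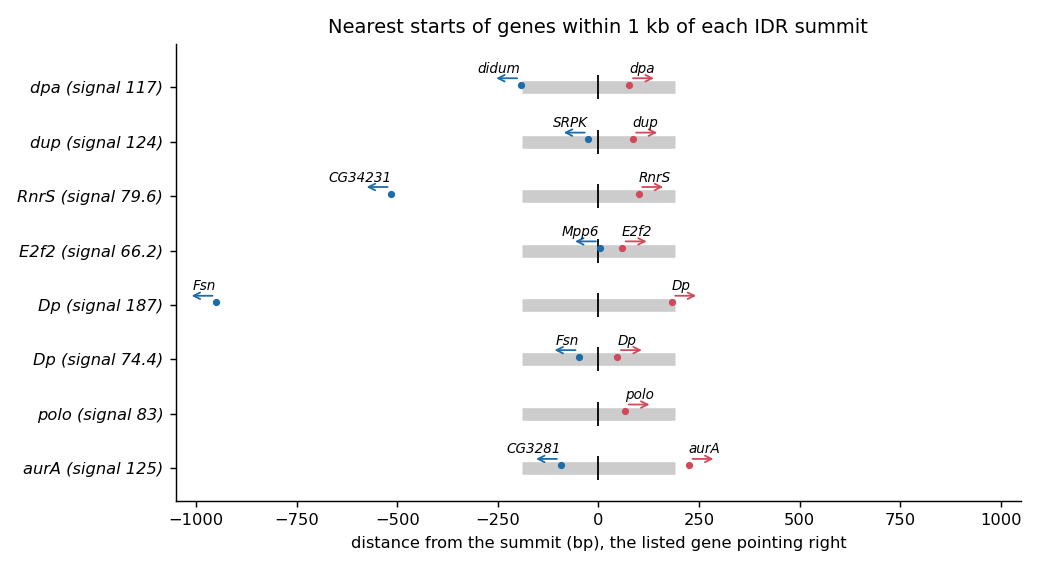
Starts of protein-coding and non-coding genes within 1 kb of each of the 8 IDR summits at members, with the listed gene drawn to point right. Grey bars are the peaks, black ticks the summits, red the members and blue their neighbours, and only the start of each gene that is nearest to the summit is drawn. Each summit lies upstream of the start drawn for the listed gene, which at dpa, dup, E2f2, polo and Dp (signal 187) is an inner start, and the summits at dup, E2f2, Dp (signal 74.4) and aurA lie close to the start of a gene on the opposite strand.

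Of the 7 occupied members 5 had a divergent neighbour, as had 966 of the 1990 other genes with an IDR peak. A summit between divergent starts counts for both genes, and at dup, E2f2 and aurA the neighbour's start was the nearer. A head-to-head arrangement, with the start of an opposite-strand protein-coding gene at most 500 bp upstream of a start, was found at 15 of 43 members (34.9%) and at 27.3% of other genes. An IDR peak was present at 5 of these 15 and at 2 of the 28 members without such a neighbour. Among other protein-coding genes the shares were 25.4% with and 10.1% without a head-to-head neighbour. The split was made after the values were seen, and the members followed the direction of all genes. The 10 head-to-head members without an IDR peak were Mcm5, Mcm6, Mcm10, lat, Orc5, RfC38, Cdk1, twe, fzy and aurB.

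Some of the weaker summits lay deeper in the genes, while others were close to a start, as at Rbf (16 bp) and Orc4 (21 bp). The best pooled peak of 10 of 42 members (23.8%) was in a coding exon more than 500 bp from a start, against 15.3% of other genes. For the members with an IDR peak this number was 0 of 7, against 0.352%. The 10 genes were Mcm3, Mcm6, Orc2, Orc6, RnrL, RfC3, RfC38, Gnf1, CycA and aurB. A start was within 500 bp of the best pooled summit at 61.9% of members and 53.7% of others. The median distance of this summit was 257 bp at members and 438 bp at others.

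Each replicate alone marked the members of the IDR list, with exceptions near the threshold. The IDR list was made from these same 2 replicates, so this overlap was largely fixed by the selection and is not independent agreement. Among the 1865 top-ranked peaks of replicate 3 alone the occupied members were the 7 of the IDR list, against 14.2% of other genes. In replicate 1 alone they were also 7, against 14.2%, with E2f1 in place of E2f2. Mcm2 lay just outside that set, at rank 1874. Over the relaxed lists 34 of 43 members (79.1%) had a peak in each replicate, against 57.8% of other genes. The best pooled peak overlapped a peak of both replicates at 26 of 42 members (61.9%) and at 62.9% of other genes, and among genes without an IDR peak at 19 of 35 (54.3%) and 53.6%. By this overlap the members were close to other genes.

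**Figure D3:**
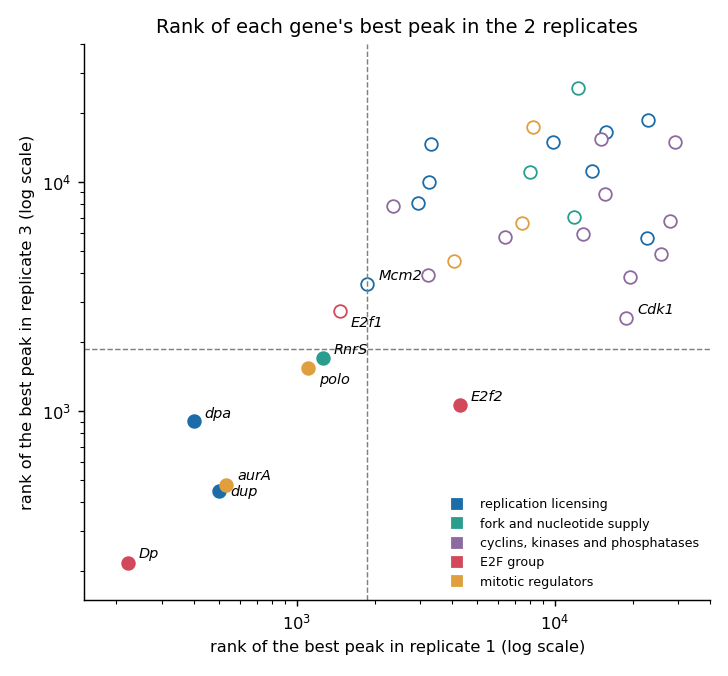
Rank of each member's best peak in replicate 1 (horizontal) and replicate 3 (vertical), both on log scales, for the 34 members with a peak in each list. Filled points have an IDR peak, and dashed lines mark rank 1865. Dp, dup, aurA, dpa, polo and RnrS lie inside both lines, E2f2 (4283 and 1069) and E2f1 (1466 and 2731) inside one.

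Sites of known regulators of replication genes were more frequent in the promoters of the members than in those of other genes. Promoters were taken from 250 bp upstream to 50 bp downstream of the start of the transcript that Ensembl marks as canonical, and motifs were searched on both strands. An E2F site in either form, TTTGGCGC or TTTCGCGC, was in 10 of 43 member promoters (23.3%) and in 3.42% of the promoters of other protein-coding genes. The DRE was in 7 (16.3%, against 8.92%), namely those of Orc2, lat, Orc5, PCNA, Gnf1, CycA and Cdk2. The motif of the core promoter factor M1BP, searched as GGTCACACT, was in 8 (18.6%, against 5.83%). The E-box was in 30 (69.8%, against 77.6%), and the E-box form CACGTG in none, against 4.30%. The Orc5 promoter held an E2F site, a DRE and the M1BP motif.

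Matches at members are given so that the sites can be compared, as 30 bases of Release 6 (dm6) sequence from RefSeq on the strand of the gene. Capitals mark the match, which reads GCGCCAAA where the site is on the opposite strand. Genes are given with the position of the first base of the match relative to the start. E2F sites are in the first 6 lines, and DREs in the last 5.
Mcm6 (13 bp): gtcagaaaaagGCGCCAAAaccgagcaaag
Orc5 (10 bp): agagggaataaTTTGGCGCcatttcaatgg
RnrL (2 bp): aatgactttaaTTTGGCGCctttttgtgct
RfC4 (-22 bp): aaccgttgtgtTTTGGCGCccaagaaacgg
CycE (-114 bp): ttgttgcatttTTTGGCGCttcggatccgc
stg (-13 bp): taaaagctcgcGCGCCAAAatcagtggcct
Orc2 (-201 bp): taatttaaattTATCGATAacgtatgcaat
Orc5 (-70 bp): ttatttcgttaTATCGATAtttttcgattg
Gnf1 (-66 bp): atttagtgagcTATCGATAacgttcagtgc
CycA (-11 bp): acgccacgaccTATCGATAgctggacagtg
Cdk2 (-61 bp): taaggaattctTATCGATAtgtggcgctgc
The E2F sites at Mcm6, Orc5, RnrL, RfC4 and stg lie within 22 bp of the start. These lie at chrX:6674389-6674418, chr2L:13829836-13829865, chr2L:10327923-10327952, chr3L:4136042-4136071 and chr3R:29255795-29255824. The CycE site, at chr2L:15746706-15746735, is 114 bp upstream, and a further site is in the same promoter. The DREs lie at chr3R:13964673-13964702 (Orc2), chr2L:13829756-13829785 (Orc5), chr3R:4906545-4906574 (Gnf1), chr3L:11833571-11833600 (CycA) and chr3R:20735551-20735580 (Cdk2). None of these 10 genes had an IDR peak. Among other protein-coding genes, 17.3% of those with TTTGGCGC and 19.6% of those with a DRE had one.

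Of the 22 members with an E2F site, a DRE or the M1BP motif at the canonical start, 0 had an IDR peak, and all 7 occupied members were among the 21 without. Over other protein-coding genes 18.3% of those with and 13.5% of those without such a motif had one. The result depended on the start that was used. With a promoter at every annotated start, a choice made after the values were seen, 25 members held one of the motifs and 2 of them, dpa and dup, had an IDR peak, against 5 of the other 18. Over other protein-coding genes the shares were then 20.5% with and 12.8% without a motif. Both dpa and dup held an E2F site at another start. TTTGGCGC was within 100 bp of the summits at dpa and dup, as in 1.55% of all 1865 IDR windows of that size. These 2 windows lie inside the promoters at the inner starts, so the matches at the summits are not separate from those in the promoters. None of the 8 windows at members held the full DRE or M1BP motif, which were in 5.31% and 1.82% of all windows. An E-box was in 5 of the 8, against 63.4%. GC content of the 8 windows ran from 29.4% at aurA to 52.7% at the weaker Dp peak. Over all IDR windows the median was 37.3%, with quartiles of 33.3% and 41.8%. Only the windows at aurA and E2f2 (34.3%) lay below this median, and those at dup and both Dp peaks lay above the upper quartile. A match is a description of letters, and the grouping of the 3 motifs was made after the values were seen.

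**Figure D4:**
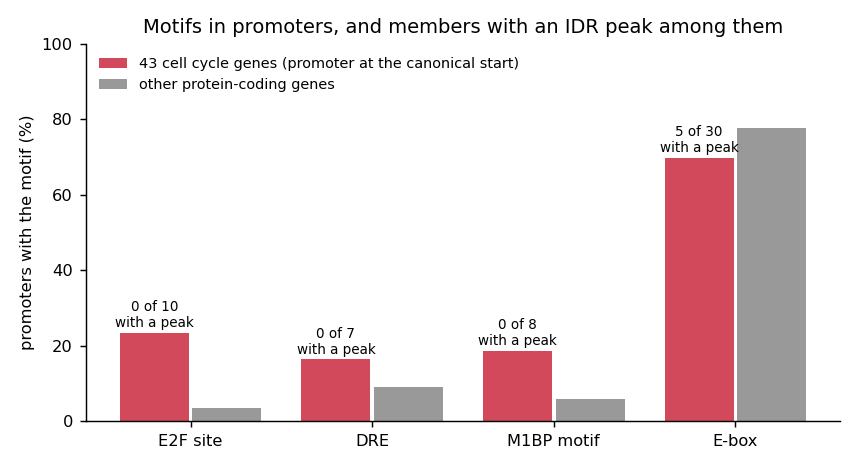
Share of promoters that hold each motif (bars from 0, in percent) among the 43 members (red) and other protein-coding genes (grey), at the canonical start. The counts over the red bars are how many members with the motif had an IDR peak, 0 of 10 for the E2F site, 0 of 7 for the DRE, 0 of 8 for M1BP and 5 of 30 for the E-box. Among other protein-coding genes with the same motif, 17% (E2F site), 19.6% (DRE), 16.4% (M1BP) and 14.3% (E-box) had an IDR peak. The counts of members are small.

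Further genes of the same processes were occupied at a share near the background as well. Of 111 other cell cycle genes in 4 lists 19 had an IDR peak, 17.1% (10.6 to 25.4), with a median best signal of 82.7. Their summits lay farther from a start than those of the 7 members, with a median of 207 bp, and were upstream at 15 of the 19 genes. Among 31 further replisome genes 5 were occupied (16.1%, 5.45 to 33.7). The highest were chif, the Dbf4 subunit of the kinase that fires origins, with a signal of 222 in an intron 1013 bp from a start, and Cdc7, the catalytic subunit of the same kinase, with 105 in an intron and 2 IDR peaks. Both subunits of this kinase were therefore occupied inside the gene. Top1, a topoisomerase gene, followed with 73.0 and the primase gene Prim1 with 65.2, the latter nearer to the start of CG7083.

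Of 25 further kinase, checkpoint and ubiquitin ligase genes 5 were occupied (20%, 6.83 to 40.7). The strongest peaks were assigned to SkpA, a ligase subunit, with 174, the phosphatase gene mts with 110 and the checkpoint gene nbs with 100, but their summits lay nearer to Hmt4-20, Rack1 and defl. At trbl, an inhibitor of the String phosphatase, the signal was 85.2 in an intron, with 2 IDR peaks. Of 8 genes for further subunits of the dREAM repressor complex, in which E2f2, Dp and Rbf also take part, 3 were occupied (37.5%, 8.52 to 75.5). These were lin-52 with 82.7, Rbf2 with 69.4 and mip130 with 69.0. Only the Rbf2 summit, 38 bp upstream, was nearest to its own gene. Of 47 further mitosis genes 6 were occupied (12.8%, 4.83 to 25.7). The highest signals were at sti, a kinase of cytokinesis (154, 42 bp upstream of the start), and APC7 (127, in its 3' UTR and 621 bp from pigs). The condensin gene SMC2 (115, 86 bp upstream) and the spindle checkpoint gene BubR1 (78.7, 142 bp upstream) followed. The intervals of these further lists all include the 14.3% of other protein-coding genes. Over all 19 genes the gene's own start was the nearest at 10, 52.6%.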

How the data were processed

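Chromatin from whole embryos was fragmented to 200 to 800 bp by sonication, immunoprecipitated for GFP and sequenced, per the labels. The authors deposited narrowPeak lists on dm6, with a signal per peak and the −log10 of a q-value. Each replicate and the pooled reads had a relaxed list, and the IDR list held the 1865 highest-ranked pooled peaks. The sources used here name no aligner, peak caller or IDR threshold and give no read depth, so no floor was set. The deposited dm3 lists were not used. Signals of different lists are on separate scales, and ranks are compared by place in each list.

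Summits were assigned with Python 3.11.15, pandas 2.3.3 and numpy 2.4.6 to protein-coding genes of Ensembl release 115 (annotation 6.54, the dm6 build), and intervals were computed with scipy 1.17.1. A summit near several starts counted for each gene. Of 154 listed genes 151 were matched by symbol and 3 by another symbol. On simulated peaks the assignment recovered 200 of 200 planted genes. Sequence and promoters came from RefSeq Release 6. All samples form 1 group, so there was no comparison between groups and no p-value, and shares of members were set beside those of all other protein-coding genes. The members and lists were chosen with earlier results of these data known. Every member is named, and further cell cycle genes only where they had an IDR peak. Alternatives changed the window, the assignment, the peak list, the starts or the replicate used.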

Additional observations from a re-analysis of the deposited data

How the results depend on the processing

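Over 10 results and 9 alternatives, 59 values stayed within 1.5 times the main count, or, for a median, moved by less than the SD between the medians of the 2 replicates (1.87 for the signal and 26.9 bp for the distance). The 1.87 is on the scale of the replicate lists, so it does not measure the spread of the pooled median signal. With a summit given only to the gene with the nearest start, members with an IDR peak numbered 4 in place of 7 (dpa, RnrS, Dp and polo), also near a start, while the share of other protein-coding genes was 9.68% in place of 14.3%, with 1 licensing gene, 1 of the E2F group, 1 mitotic regulator and 10 other cell cycle genes, and a median signal of 99.9. In the upper part of the IDR list, of 932 peaks, 4 members (dpa, dup, Dp and aurA) and 7.88% of other genes were occupied, the members also near a start, with 0 fork genes, 1 of the E2F group, 1 mitotic regulator and 8 other cell cycle genes, a median signal of 124 and a median distance of 134 bp. The whole pooled list gave 42 members, 41 near a start, and 70.6% of other genes, with 16 licensing, 6 fork, 11 cyclin, kinase and phosphatase, 4 E2F group, 5 mitotic and 98 other cell cycle genes, a median signal of 32.2 and a median distance of 257 bp. A 2 kb window added Mcm3 and Cdk1, the latter the 1 occupied gene of its group, and gave a median signal of 113. Using 1 start per gene moved the median distance to 289 bp. With either replicate left out the median signal was 53.1 to 55.8, on the scale of the replicate lists, and the number of occupied members was 7. Members occupied near a start numbered 7 without replicate 1 and 6 without replicate 3. A promoter at every annotated start, added after seeing the data, moved the occupied members with an E2F, DRE or M1BP motif from 0 to 2. Each of these follows from the peaks, starts or genes counted. No paired analysis was possible because all samples form 1 group. Whether more members would pass the threshold with deeper sequencing was not tested.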
